A study of Mus musculus with 6 samples.

Results

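The respiratory chain and the ATP synthase were followed through 99 genes whose symbols match the names of their subunits (Nduf, Sdh, Uqcr, Cyc1, Cox4 to Cox8, Atp5 and the mitochondrially encoded mt-Nd, mt-Co, mt-Cytb and mt-Atp genes, without pseudogenes), out of 43271 genes in the count table. Of these, 93 had at least 10 counts in at least 3 libraries and were kept. The 80 nuclear genes among them comprise 35 of complex I, 4 of complex II, 9 of complex III, 15 of complex IV and 17 of complex V, and the 13 mitochondrial genes comprise 7, 1, 3 and 2 of complexes I, III, IV and V. Ndufa4, long counted with complex I and now known as a subunit of cytochrome c oxidase, was placed in complex IV. The 6 genes not kept were Cox4i2, Cox6b2, Cox7b2, Cox8c, Ndufa4l2 and a second identifier with the symbol Atp5o. Cox6a2 met the count minimum through the treated libraries only. The complex I subunit gene Ndufab1 has a name outside the pattern and is given once, with the related genes.

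The cells were primary brain microvascular endothelial cells of wild-type C57BL/6 mice, which form the inner lining of brain capillaries, used at passages 2 to 6 and treated as confluent monolayers. One group of 3 libraries received the vehicle dimethyl sulfoxide (DMSO) and the other 3 libraries received dolutegravir (DTG), which blocks the HIV integrase, for 24 h at a dose of 5000 ng/ml. The series title asks about endoplasmic reticulum stress and the blood-brain barrier. Library names carry a P4 or P5 tag that the labels do not define. DMSO replicate 1 and DTG replicates 2 and 3 carry P4, and DMSO replicates 2 and 3 and DTG replicate 1 carry P5. The labels leave unsaid whether the libraries are separate cultures, so a p-value reflects only how these samples vary, and that variation may be technical.

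Total counts were 41162353 to 56316335 per library. CPM here stands for counts scaled by the normalized library size, and a gene passed when its adjusted p was under 0.05 in edgeR's quasi-likelihood test over 14101 genes with Benjamini-Hochberg adjustment, the source of every adjusted p given here unless another tool is named. Of 12 endothelial markers 11 were abundant enough to test, and their summed level was 11434 to 12481 CPM in DMSO and at 7495 to 7710 CPM in DTG. Of the 11 tested 7 fell, 1 rose and 3 did not pass, where 29.3% of all genes tested were lower and 27.4% higher. Pecam1, the endothelial adhesion molecule, fell from 1433 to 819 CPM on average, and Slc2a1, the glucose transporter of the blood-brain barrier, rose from 135 to 365 CPM. DMSO replicate 3 stood apart in the subunit genes: it was the lowest DMSO library for 70 of the 80 nuclear genes and the highest for 13 of the 13 mitochondrial genes.

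The respiratory chain passes electrons from NADH (complex I) and succinate (complex II) through coenzyme Q to complex III, then through cytochrome c to complex IV, which reduces oxygen. Complexes I, III and IV pump protons across the inner mitochondrial membrane, and the ATP synthase, complex V, uses the proton gradient to make ATP. All complexes but complex II hold subunits of both genomes, so assembly needs products of nuclear and mitochondrial genes. Brain capillary endothelium is known for its many mitochondria, although cultured endothelial cells rely to a large part on glycolysis.

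Cox6a2 and Atp5g1, described below, belong to families of near relatives, and the sequences show how far reads can separate the relatives. Cox6a1 and Cox6a2 encode the general and the muscle form of a regulatory subunit of complex IV, and their coding sequences are 54.3% identical over the alignment. Shown are 90 coding bases of each without a gap, 5′ to 3′, with the 21 differing positions in capitals, from coding bases 205 to 294 of Cox6a1 and 160 to 249 of Cox6a2 (GENCODE transcripts of mouse build GRCm38).
Cox6a1: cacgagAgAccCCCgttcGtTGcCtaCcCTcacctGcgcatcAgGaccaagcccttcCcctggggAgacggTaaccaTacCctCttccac
Cox6a2: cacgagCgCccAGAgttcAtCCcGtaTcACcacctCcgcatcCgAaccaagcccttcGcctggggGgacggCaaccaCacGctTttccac

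Atp5g1, Atp5g2 and Atp5g3 (also named Atp5mc1 to Atp5mc3) encode the same mature c subunit of the ATP synthase rotor behind different import sequences. Their coding sequences are 65.0% to 67.3% identical in pairs. The last 90 coding bases before the stop codon, which lie in the part for the mature protein, differ at 24 positions, shown in capitals.
Atp5g1: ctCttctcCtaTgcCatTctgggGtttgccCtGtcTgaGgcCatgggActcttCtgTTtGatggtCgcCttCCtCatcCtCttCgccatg
Atp5g2: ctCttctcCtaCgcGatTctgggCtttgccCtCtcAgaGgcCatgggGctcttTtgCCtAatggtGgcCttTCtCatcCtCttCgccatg
Atp5g3: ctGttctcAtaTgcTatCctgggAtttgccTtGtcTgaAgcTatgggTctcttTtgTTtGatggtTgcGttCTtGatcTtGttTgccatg

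Most nuclear subunit genes differed little between the groups, and single subunits moved in opposite directions within complexes I, III, IV and V. Among the 80 nuclear genes 12 rose, Cox6a2 included, and 10 fell, so 27.5% passed, where 56.7% of all genes tested passed (27.4% higher and 29.3% lower). In bulk RNA, fewer cells of a type and less RNA per cell cannot be told apart. The median log2 fold change of DTG against DMSO was -0.00 over the 80 genes and -0.01 over all genes tested, and 92.5% of the nuclear members lay within 0.5 log2 of no change, against 61.0% of all genes. In 27 of the 80 the 3 DMSO and 3 DTG libraries did not overlap in CPM, where 64.2% of all genes had groups that did not overlap (31.1% higher and 33.1% lower). The 58 nuclear genes that did not pass ranged from -0.51 to 0.29. Without Cox7a1 and Cox8b, which had few counts, the other 56 ranged from -0.24 to 0.29 with a median standard error of 0.09. The count of genes that rose was 7 without DTG replicate 3 and between 9 and 17 without any other library. The count that fell was 18 without DMSO replicate 3, 5 without DTG replicate 1 and 4 without DMSO replicate 1 or 2 or DTG replicate 2 or 3. With library size alone in place of the scaling, the all-gene median moved by -0.17 log2, and under upper-quartile scaling by -0.09. The 12 and 10 nuclear calls became 4 higher and 27 lower with the former and 6 and 15 with the latter. Of all calls 48.3% were higher in the test used here, 30.7% under the former and 38.2% under the latter.

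**Figure D1:**
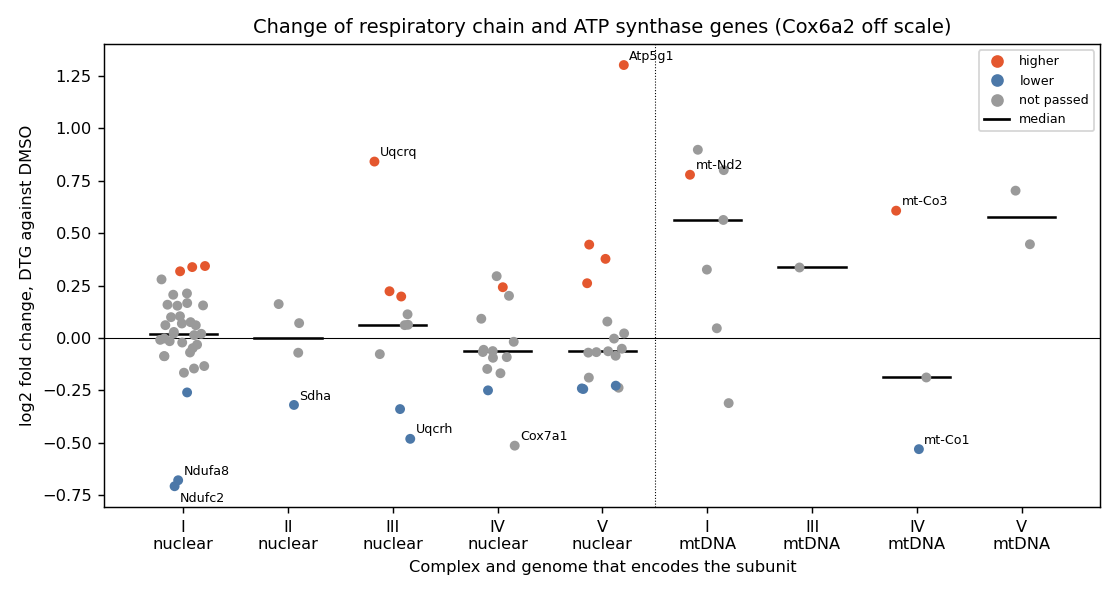
Log2 fold change of DTG against DMSO (vertical axis) for each subunit gene, by complex and by the genome that encodes it. Points are genes (red higher, blue lower, grey not passed at an adjusted p of 0.05), black lines are medians, and Cox6a2 at 7.78 lies above the axis. The nuclear medians lie between -0.06 and 0.06, with Atp5g1 and Uqcrq above and Ndufa8 and Ndufc2 below the other genes.

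Of the 22 nuclear calls 22 had the same sign in both tags, as did 60 of all 80 nuclear genes. These values carry no test, and the 22 were called on these same libraries, so the agreement adds no support. Leaving out any 1 library kept 11 of the 22 calls: Cox6a2, Atp5g1, Atp5b, Atp5s, Uqcrq, Uqcrh, Ndufa8, Ndufc2, Ndufb6, Ndufb9 and Sdha. All but Ndufb6, Ndufb9 and Atp5s also kept their call under every other scaling, filter, design and tool tried, 18 fits in all. These 8 genes are described first in the account of each complex. Cox6a2 was kept as a member through the DTG libraries alone, so its stable call supports nothing about the members. With the P tag as a term in the fit 10 nuclear genes rose and 9 fell, and the calls of Ndufa2, Uqcrb and Cox6c were lost (adjusted p = 0.0608, 0.0752 and 0.0644). The higher calls of Ndufa2, Uqcrb, Uqcrc2, Cox7c and Atp5f1 also depended on the scaling. They were lost with upper-quartile scaling (adjusted p = 0.0758 to 0.276) and with library size alone (0.310 to 0.782).

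In complex I, the NADH dehydrogenase, 3 of 35 nuclear genes rose and 3 fell, a share of 17.1% beside the 56.7% of all genes. The median was 0.02 log2. Ndufc2, an accessory subunit of the membrane arm, was at 125, 136 and 132 CPM in DMSO replicates 1 to 3 and at 78.1, 81.4 and 81.1 CPM in DTG replicates 1 to 3. Each DTG library was below each DMSO library, and the libraries of a group lay close together. The log2 fold change was -0.71 ± 0.07 (SE, adjusted p = 2.23e-05), and the differences were -0.61 in P4 and -0.78 in P5. Ndufa8, an accessory subunit on the side of the intermembrane space, was at 275, 331 and 272 CPM in DMSO and at 211, 172 and 166 CPM in DTG. Its groups did not overlap, and DTG replicate 1, the P5 library, was the highest of the DTG libraries. Its log2 fold change was -0.68 ± 0.11 (adjusted p = 5.47e-04).

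Ndufb6 and Ndufb9, accessory subunits of the membrane arm, had log2 fold changes of 0.34 ± 0.08 and 0.34 ± 0.10 (adjusted p = 0.00341 and 0.0149). Ndufb6 went from 30.8 ± 1.44 to 38.9 ± 0.58 CPM and Ndufb9 from 60.8 ± 8.22 to 77.1 ± 4.04 CPM (SD, n = 3 each). Both missed the threshold with library size alone (adjusted p = 0.0828 and 0.17), and Ndufb9 also with upper-quartile scaling (0.0572). Ndufa2, an accessory subunit of the NADH-oxidizing module, was 0.32 ± 0.12 log2 higher (adjusted p = 0.0391), a call lost without DTG replicate 2 (0.0639) or 3 (0.0546). The 29 complex I genes that did not pass ranged from -0.17 to 0.28 log2.

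Complex II, succinate dehydrogenase, is encoded by nuclear genes alone. Sdha, the flavoprotein that oxidizes succinate, was at 182, 192 and 182 CPM in DMSO and at 148, 145 and 153 CPM in DTG. The groups did not overlap, and the log2 fold change was -0.32 ± 0.07 (adjusted p = 0.00284). The other 3 subunits did not pass. The iron-sulfur subunit gene Sdhb was at 51.5 ± 5.62 and 57.6 ± 3.84 CPM, and the membrane anchor genes Sdhc and Sdhd were at 98.4 ± 6.68 and 103 ± 3.74 CPM and at 67.0 ± 4.98 and 63.8 ± 5.20 CPM (SD, n = 3 each).

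In complex III, the cytochrome bc1 complex, 3 of 9 nuclear genes rose and 2 fell, a share of 55.6% beside the 56.7% of all genes. Uqcrq, a small subunit of the membrane part, was at 109, 113 and 75.7 CPM in DMSO and at 175, 174 and 184 CPM in DTG. The lowest value was that of DMSO replicate 3, and each DTG library was above each DMSO library. Its log2 fold change was 0.84 ± 0.13 (adjusted p = 3.83e-04), and the differences were 0.71 in P4 and 0.92 in P5. Uqcrh, the hinge protein that contacts cytochrome c1, went the other way, from 96.8, 102 and 83.6 CPM to 69.9, 65.3 and 67.0 CPM. Its groups did not overlap, and its log2 fold change was -0.48 ± 0.09 (adjusted p = 9.33e-04).

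Further complex III calls were each lost when some of the libraries were left out. Uqcrc2, a core protein, was 0.22 ± 0.07 log2 higher (adjusted p = 0.0267), a call lost without DMSO replicate 1 (0.0948) or DTG replicate 3 (0.0758). Uqcrb was 0.20 ± 0.08 higher (adjusted p = 0.0496), lost without each library but DTG replicate 1 (0.0515 to 0.126). Uqcr11, the smallest subunit, was at -0.34 ± 0.12 (adjusted p = 0.0345) with groups that overlapped, lost without each library but DMSO replicate 3 (0.0548 to 0.147). The genes of the subunits that carry the electrons, Cyc1 (cytochrome c1) and Uqcrfs1 (the Rieske iron-sulfur protein), did not pass, at 88.7 ± 10.2 and 84.1 ± 5.21 CPM and at 67.4 ± 6.57 and 70.3 ± 4.22 CPM (SD, n = 3 each).

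Complex IV is cytochrome c oxidase. Its member Cox6a2, shown above beside Cox6a1, was kept through the DTG libraries alone, so its passing supports nothing about the members, and its counts are given as a description. It had 4, 2 and 0 counts in DMSO replicates 1 to 3 and 426, 465 and 495 counts in DTG replicates 1 to 3. In CPM it was at 0.0375 ± 0.0395 for DMSO and 9.10 ± 1.18 for DTG (SD, n = 3 each). No DMSO library came near the DTG libraries, which lay close to each other. Over all libraries of a group the counts were 6 and 1386, a ratio of 232 after scaling (95% exact interval 106 to 632, counting error only). The fitted log2 fold change of 7.78 ± 0.33 depends on the prior count used for low genes.

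The general form Cox6a1 remained the main form in these libraries. It was at 202, 221 and 160 CPM in DMSO and at 214, 198 and 210 CPM in DTG, with groups that overlapped (log2 0.09 ± 0.11, adjusted p = 0.497). Cox6a2 made up 0.0390%, 0.0153% and 0% of the Cox6a counts in DMSO and 3.57%, 4.40% and 4.67% in DTG. Per transcript length the share was 0.0165% ± 0.0179 and 3.86% ± 0.53 (SD, n = 3 each).

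The other muscle or tissue forms of complex IV stayed at a few counts. Cox7a1, the muscle partner of Cox7a2, had 53 counts in the DMSO and 37 in the DTG libraries (ratio 0.70, 95% exact interval 0.447 to 1.09), and Cox8b, the muscle form of Cox8 in mice, had 43 and 40 (0.933, 0.591 to 1.47). Cox4i2, a form of lung and low oxygen, had 1 and 5 counts, and the testis form Cox6b2 had 3 and 0. Ndufa4l2, a relative of Ndufa4 known as a target of the hypoxia-inducible factor, had 3 and 23 counts (ratio 7.69, 2.32 to 40.01) and was too low to be kept. The main partners Cox4i1, Cox7a2, Cox8a and Cox6b1 lay at 210 ± 24.2, 95.0 ± 9.56, 197 ± 31.1 and 130 ± 12.6 CPM in DMSO and at 207 ± 2.60, 85.8 ± 5.27, 189 ± 7.43 and 122 ± 4.34 CPM in DTG (SD, n = 3 each), and none of them passed.

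Markers of muscle and of other cell types of brain and vessel gave the following values. The 20 markers of skeletal and cardiac muscle summed to 2.33 to 3.27 CPM in DMSO and at 2.14 to 2.69 CPM in DTG, 4 of them were at 0 in each library, and 13 were under 0.1 CPM in both groups. Ckm and Ckmt2, muscle creatine kinases, were at 0 and 0.00691 CPM and at 0 in both groups. Of the 5 muscle markers tested Tnni3 fell, from 1.24 to 0.704 CPM, and the other 4 did not pass. The 13 pericyte and smooth muscle markers summed to 1.45 to 1.93 and 1.26 to 2.12 CPM. Of the 3 tested Pdgfrb rose (0.196 and 0.718 CPM), Anpep fell (0.920 and 0.486 CPM) and Myh11 did not pass, and 4, the pericyte markers Rgs5 and Kcnj8 among them, were at 0 in each library. The 6 astrocyte markers summed to 56.5 to 65.3 CPM in DMSO and at 203 to 249 CPM in DTG, nearly all of it Gja1, a gap junction protein (60.0 and 230 CPM), while the other 5 were under 0.1 CPM in both groups and Aqp4 was at 0. The 6 neuron markers summed to 0.650 to 0.708 and 2.69 to 6.29 CPM, with Tubb3, a tubulin, at 0.103 and 4.59 CPM, 4 under 0.1 CPM in both groups and Map2 at 0. The 8 microglia and macrophage markers summed to 107 to 125 CPM in DMSO and 128 to 186 CPM in DTG. Of the 2 tested 1 rose and 1 fell. The 6 fibroblast markers summed to 6.52 to 7.50 and 7.76 to 8.68 CPM, and 1 of the 2 tested rose. Oligodendrocyte, epithelium and brown adipocyte markers summed to at most 1.87, 0.627 and 0.202 CPM in any library, and none passed. The part of any of these in the results was not tested.

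Of the remaining complex IV genes, Cox7c was 0.24 ± 0.08 log2 higher (adjusted p = 0.0304), a call lost without DMSO replicate 1 (0.0586) or DTG replicate 3 (0.0729). Cox6c was at -0.25 ± 0.09 (adjusted p = 0.0417), lost without each library but DMSO replicate 3 (0.0606 to 0.219). With Cox6a2 these were the 3 nuclear genes of complex IV that passed out of 15 (20%, beside 56.7% of all genes). The median of the 15 was -0.06 log2.

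**Figure D2:**
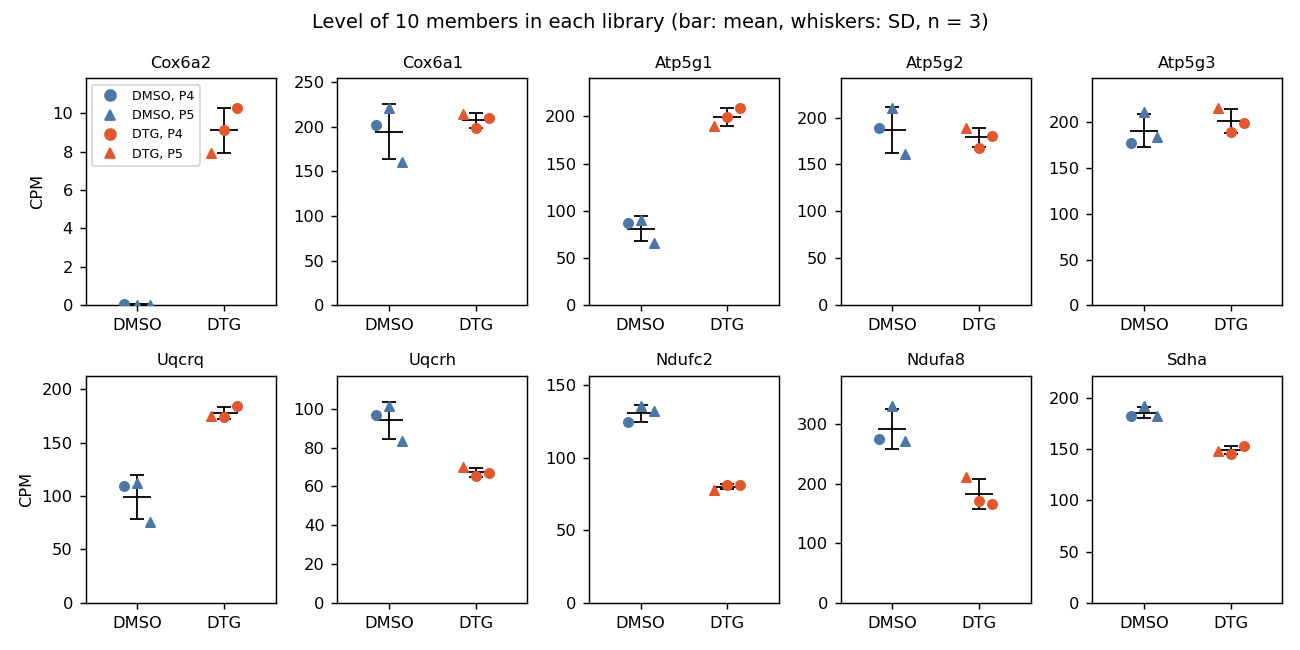
CPM (vertical axes, each from 0) of 10 subunit genes in the 3 DMSO (blue) and 3 DTG (red) libraries, circles for P4 and triangles for P5, with the mean as a bar and the SD as whiskers. Cox6a2, Atp5g1 and Uqcrq were higher and Uqcrh, Ndufc2, Ndufa8 and Sdha lower in each DTG library, and the groups overlapped for Cox6a1, Atp5g2 and Atp5g3.

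In complex V, the ATP synthase, 4 of 17 nuclear genes rose and 3 fell, a share of 41.2% beside the 56.7% of all genes. The median was -0.06 log2. Atp5g1 was at 86.6, 90.2 and 65.7 CPM in DMSO and at 189, 200 and 209 CPM in DTG. The groups lay far apart, and the lowest value was that of DMSO replicate 3. The log2 fold change was 1.30 ± 0.11 (2.46-fold, adjusted p = 8.98e-06), and the differences were 1.23 in P4 and 1.29 in P5. Atp5g2 was at 187 ± 24.6 and 179 ± 10.4 CPM and Atp5g3 at 191 ± 18.2 and 202 ± 13.3 CPM (SD, n = 3 each). Neither of these passed, and their groups overlapped. Of the counts of the 3 genes, Atp5g1 took 19.1%, 17.6% and 15.998% in DMSO and 31.9%, 35.8% and 35.5% in DTG.

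Atp5b, which encodes the catalytic beta subunit, was at 1014, 1072 and 933 CPM in DMSO and at 1274, 1312 and 1335 CPM in DTG. Each DTG library was above each DMSO library, and the log2 fold change was 0.38 ± 0.08 (adjusted p = 0.00255). It was the 1 gene of the 5 subunits of the F1 head that passed. Its partner Atp5a1, the alpha subunit, was at 328 ± 16.4 and 327 ± 5.66 CPM (SD, n = 3 each).

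Atp5s, a coupling factor B relative that is no structural subunit, rose by 0.45 ± 0.12 log2 (adjusted p = 0.00784), from 7.70 ± 0.98 to 10.5 ± 0.41 CPM (SD, n = 3 each), and missed the threshold with library size alone (0.0643). Atp5f1, subunit b of the stator stalk, was 0.26 ± 0.07 higher (adjusted p = 0.0128), a call lost without DMSO replicate 1 (0.0571) or DTG replicate 3 (0.0515). Small membrane subunits made up the calls in the other direction. Atp5k (subunit e), Atp5j2 (subunit f) and Atp5mpl were at -0.24, -0.23 and -0.24 log2 (adjusted p = 0.0276, 0.0437 and 0.0470), and each call was lost without any library but DMSO replicate 3 (0.0525 to 0.130, 0.101 to 0.164 and 0.0823 to 0.205).

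Between genes, levels were compared only per transcript length, as TPM (counts per base of transcript, scaled to a fixed sum) on the longest annotated transcript. In DMSO the median nuclear gene was at 148 TPM in complex I, 140 in complex II, 220 in complex III, 342 in complex IV and 314 in complex V, and in DTG at 130, 121, 219, 323 and 237 TPM. Atp5b was the highest nuclear member in both groups, at 1526 and 1691 TPM. Mitochondrially encoded messages in DMSO ranged from 91.4 TPM for mt-Nd6, below each of these nuclear medians, to 23298 TPM for mt-Co1. All but mt-Nd6 were above each of these medians, while mt-Nd3 and mt-Atp8, at 963 and 1392 TPM, were below Atp5b. The 80 nuclear genes took 0.921%, 0.980% and 0.809% of all counts in DMSO and 0.844%, 0.806% and 0.838% in DTG, with groups that overlapped, and the mean of their summed CPM in DTG was 1.03 times that in DMSO. Of all TPM they took 2.25%, 2.33% and 1.96% in DMSO and 1.88%, 1.83% and 1.88% in DTG, lower in each DTG library. TPM carries no scaling between libraries, so the TPM values order genes within a group, and differences between the groups are given from CPM.

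The 13 mitochondrially encoded genes are read from 1 circular genome as long transcripts that are cut into messages, and their summed level overlapped between the groups. In CPM 6 of the 13 had groups that did not overlap, where 64.2% of all genes did not. They took 2.45%, 3.06% and 4.22% of all counts in DMSO and 3.56%, 2.74% and 2.79% in DTG. Each P5 library was above each P4 library with the same treatment. The DTG mean was 0.21 percentage points lower as a raw difference (-0.21), 0.32 higher within P4 and -0.08 within P5.

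**Figure D3:**
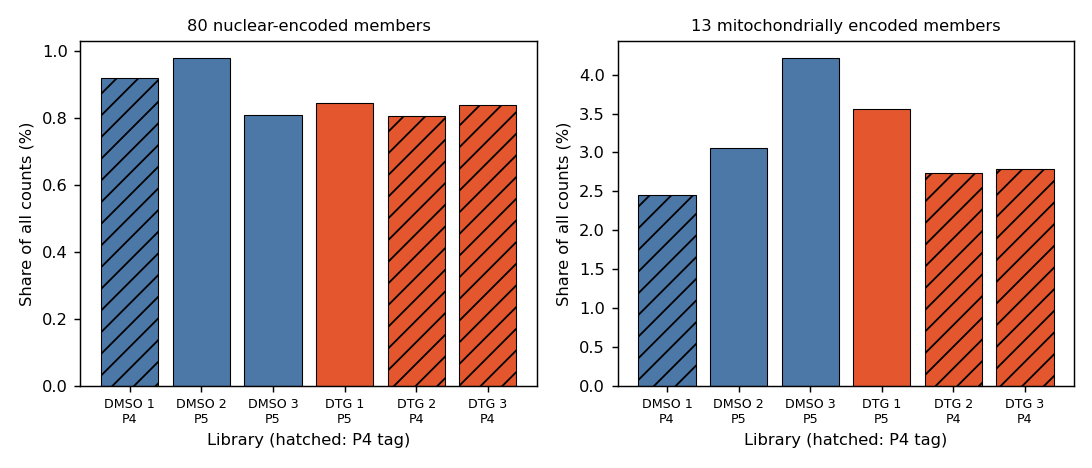
Share of all counts (vertical axes, %, from 0) taken by the 80 nuclear and by the 13 mitochondrially encoded genes in each library, hatched for P4. The mitochondrial share was highest in DMSO replicate 3 at 4.22% and lowest in DMSO replicate 1 at 2.45%, with the DTG libraries between them.

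mt-Co1, the catalytic subunit of complex IV, was at 9675, 12492 and 14991 CPM in DMSO and at 9590, 7951 and 8197 CPM in DTG. The lowest DMSO and the highest DTG library nearly met without overlap, and DMSO replicate 3 was the highest library. Its log2 fold change was -0.53 ± 0.15 (adjusted p = 0.0114), and the differences were -0.26 in P4 and -0.51 in P5. mt-Nd2, a proton-pumping subunit of complex I, was at 855, 1114 and 1538 CPM in DMSO and at 2414, 1717 and 1883 CPM in DTG, each DTG library above each DMSO library. Its log2 fold change was 0.78 ± 0.21 (adjusted p = 0.0150), and the differences were 1.07 in P4 and 0.88 in P5. mt-Co3, a complex IV core subunit, was at 1987, 2590 and 3768 CPM and at 4938, 3847 and 3924 CPM. Its groups did not overlap, although DMSO replicate 3 and DTG replicate 2 lay close together. The log2 fold change was 0.61 ± 0.22 (adjusted p = 0.0436).

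These were the only 3 of the 13 that passed (2 higher and 1 lower, 23.1%, beside 56.7% of all genes, 27.4% higher and 29.3% lower), and each call was lost without some library. The call of mt-Nd2 was lost without DMSO replicate 2 (adjusted p = 0.0524), that of mt-Co1 without DMSO replicate 3 (0.0507) or DTG replicate 2 (0.0542) or 3 (0.0539), and that of mt-Co3 without each library but DMSO replicate 3 (0.0780 to 0.125). The number of mitochondrial genes that rose was 9 without DMSO replicate 3, 0 without DMSO replicate 2 and 1 without any other library. The number that fell was 0 without DMSO replicate 3 or DTG replicate 2 or 3, 2 without DMSO replicate 1 and 1 without DMSO replicate 2 or DTG replicate 1.

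With the P tag as a term in the fit, 6 mitochondrial genes rose and mt-Co1 fell (-0.39, adjusted p = 0.00815). These were mt-Nd1 at 1.04 log2 (adjusted p = 0.00385), mt-Nd2 at 0.97 (8.41e-05), mt-Nd3 at 1.18 (0.00598), mt-Nd4l at 0.72 (0.0240), mt-Cytb at 0.49 (0.00252) and mt-Co3 at 0.80 (7.03e-04). Without the tag, mt-Nd1 and mt-Nd3, subunits of the membrane arm of complex I, were at 0.80 ± 0.29 and 0.90 ± 0.37 (adjusted p = 0.0535 and 0.0867). The median over the 13 genes was 0.45 log2, 0.84 within P4 and 0.59 within P5, beside -0.01 over all genes tested. DMSO replicate 1 is the only DMSO library of P4, and DTG replicate 1 the only DTG library of P5. They were the lowest DMSO and the highest DTG library for 13 of the 13 genes, so each within-tag median rests on such a library. The median was 0.89 without DMSO replicate 3.

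Shares within the mitochondrial messages do not depend on the library scaling. mt-Co1 took 42.2%, 43.3% and 37.5% of the counts of the 13 genes in DMSO and 25.8%, 27.1% and 27.6% in DTG. It had the most counts of the 13 genes in each library, and its groups lay far apart. Per transcript length mt-Co3 was above it in DTG replicate 1, at 15592 against 15366 TPM. mt-Nd1 went from 5.52% ± 0.79 to 9.39% ± 0.39, mt-Nd2 from 3.81% ± 0.07 to 6.23% ± 0.34 and mt-Co3 from 9.02% ± 0.38 to 13.2% ± 0.09 (SD, n = 3 each). mt-Cytb, the complex III member, went from 9.31% ± 0.50 to 11.1% ± 0.32. mt-Nd5 and mt-Co2 had lower shares in DTG, at 4.91% ± 0.56 and 3.74% ± 0.30 and at 10.9% ± 0.26 and 9.14% ± 0.16. The shares of the groups overlapped for mt-Nd6, mt-Atp6 and mt-Atp8 and not for the other 10 genes, beside 6 of 13 in CPM and 64.2% of all genes in CPM. Shares sum to a whole, so a fall of the message with the most counts raises the others.

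**Figure D4:**
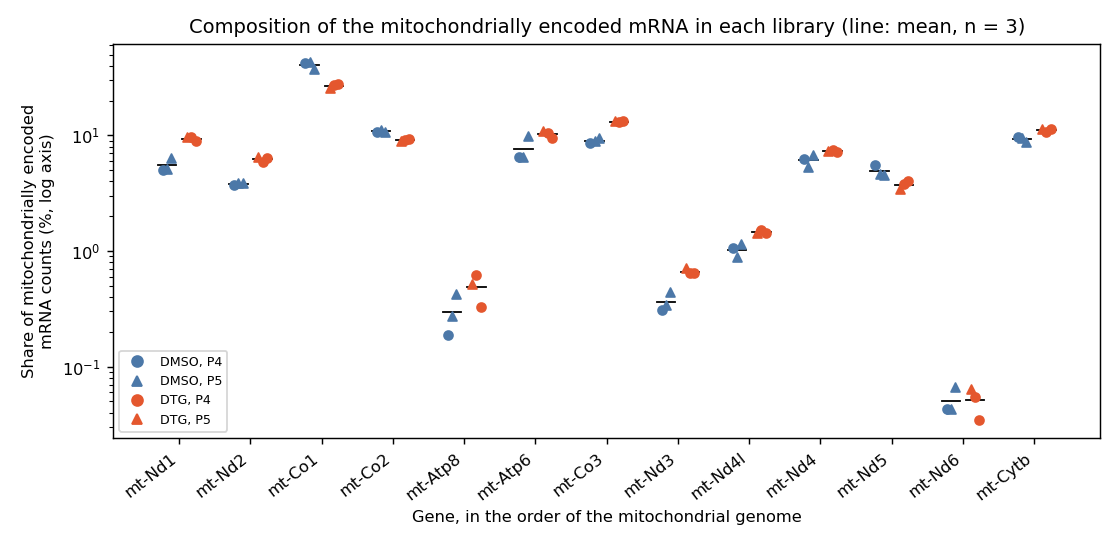
Share of each mitochondrially encoded gene in the counts of all 13 (vertical axis, %, logarithmic), in genome order, for the 3 DMSO (blue) and 3 DTG (red) libraries, circles for P4 and triangles for P5, with lines at the means. mt-Co1 lies at 37.5% to 43.3% in DMSO and at 25.8% to 27.6% in DTG, and mt-Nd1, mt-Nd2 and mt-Co3 lie higher in each DTG library.

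Ratios of counts within a library restate the shares without a sum. For mt-Co1 with mt-Co3 or mt-Nd2, and for mt-Nd5 with mt-Cytb, the shares had already parted in opposite directions. Their ratios therefore had to part as well and add no support. mt-Co1 over mt-Co3 was 4.87, 4.82 and 3.98 in DMSO and 1.94, 2.07 and 2.09 in DTG. mt-Co1 over mt-Nd2 was 11.3, 11.2 and 9.75 in DMSO and 3.97, 4.63 and 4.35 in DTG. mt-Nd5 over mt-Cytb was 0.573, 0.485 and 0.523 in DMSO and 0.303, 0.352 and 0.356 in DTG. For each ratio the DTG libraries lay close together and below each DMSO library in both tags, and DMSO replicate 3 had the lowest mt-Co1 ratios of the DMSO libraries. The ratio of mt-Co1 to mt-Co2 differed less, at 3.93, 3.86 and 3.48 and at 2.86, 2.97 and 2.96.

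Nuclear copies of mitochondrial sequence could share reads with some of these genes. From the GRCm38 annotation 7 such copies, chosen by name, were aligned to the mitochondrial genes. They matched mt-Nd4l, mt-Atp6, mt-Co3, mt-Co2 and mt-Nd3 over at least 98.99% of the gene, mt-Nd4 over 63.6% and mt-Co1 over 31.3%. Each match was at 99.7% identity or more. The annotation was not searched for further copies, so whether the other mitochondrial genes have any was not checked. How shared reads were counted is not given in the sources used here, so values of at least these 7 genes are uncertain. mt-Nd6, which lies on the strand opposite to the other 12, had 9.81 to 26.6 CPM, and the strand setting of the counting is not given either.

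The start regions of the nuclear genes were read for known motifs of respiratory genes in RefSeq promoters of build GRCm38.p6, taking 250 bases before and 50 after the start. Of the 80 nuclear genes 64 had an entry, 4 of them among the genes that rose and 7 among those that fell. The motif of nuclear respiratory factor 1 (NRF1), read on either strand like the others, stood in 5 of 64 (7.81%), beside 1.07% of 27025 genes. The ETS motif CCGGAAG, read by GABP among other factors, stood in 16 (25%, beside 9.93%), and the YY1 motif AAGATGGCG in 7 (10.9%, beside 1.64%). The amino acid response motif TGATGNAAN and the endoplasmic reticulum stress response element (ERSE) stood in 0 of 64, beside 4.496% and 0.137% of all genes. Of the 11 genes with an entry that passed in either direction, 1 held the NRF1, 4 the ETS and 1 the YY1 motif. A match is a run of letters and no sign of binding, and no match says only that these letters are not in this window.

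The 250 bases before the start of Atp5g1 (chr11:96075632-96075881, minus strand) and Atp5g2 (chr15:102671048-102671297, minus strand) are shown because one of these genes for the same mature protein rose and the other did not pass. Capitals mark the NRF1 motif in Atp5g2, and none of the 5 motifs stood in this stretch of Atp5g1.
Atp5g1: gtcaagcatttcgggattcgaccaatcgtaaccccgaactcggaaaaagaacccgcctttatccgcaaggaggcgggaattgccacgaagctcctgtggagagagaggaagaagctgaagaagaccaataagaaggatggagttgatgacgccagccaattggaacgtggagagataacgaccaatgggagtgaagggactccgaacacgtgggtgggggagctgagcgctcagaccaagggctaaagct
Atp5g2: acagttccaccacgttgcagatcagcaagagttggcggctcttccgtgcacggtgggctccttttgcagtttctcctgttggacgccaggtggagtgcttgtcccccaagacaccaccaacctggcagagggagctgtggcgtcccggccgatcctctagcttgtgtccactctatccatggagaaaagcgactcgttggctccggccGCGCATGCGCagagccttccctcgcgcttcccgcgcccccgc

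The genes that build and serve the chain are given by list. Of 27 genes that copy, transcribe and process mitochondrial DNA and RNA, 16 rose and 2 fell, with a median of 0.32 log2, where 27.4% of all genes were higher and 29.3% lower. The genes that fell were Mterf2 and Hsd17b10. With library size alone 12 rose and 2 fell with a median of 0.15, and without any 1 library 14 to 18 rose and 2 fell. Fastkd5, which takes part in processing of mitochondrial messages, went from 8.08 ± 0.69 to 13.1 ± 1.17 CPM, Pnpt1, a mitochondrial ribonuclease, from 37.0 ± 2.57 to 54.7 ± 1.96 CPM, and Rexo2, which degrades short RNA, from 38.9 ± 1.17 to 55.6 ± 4.43 CPM (SD, n = 3 each). Their log2 fold changes were 0.69, 0.56 and 0.51 (adjusted p = 4.32e-04, 1.98e-04 and 4.13e-04). Of 23 assembly factors of complex IV 8 rose and 4 fell, but 2 and 6 with library size alone, 5 and 5 without DMSO replicate 3, 5 and 4 without DMSO replicate 1 and 4 and 2 without DTG replicate 3. Cox18, which inserts the mt-Co2 protein, and Higd1a were at 0.72 ± 0.09 and 0.56 ± 0.09 log2 (adjusted p = 6.06e-05 and 4.46e-04), and Pet100 fell by 0.48 on this scale (adjusted p = 0.00243). The assembly factors of complex I (4 of 17 higher, 2 lower), II (2 and 1 of 4), III (1 and 1 of 6) and V (2 and 0 of 5) had medians from 0.08 to 0.15 log2, but with library size alone 1 rose and 4 fell, 0 and 1, 0 and 1, and 1 and 2, with medians from -0.09 to -0.02. Among these, Foxred1 and Ecsit (complex I), Uqcc1 (complex III) and Fmc1 (complex V) rose by 0.51, 0.37, 0.28 and 0.53 log2, and Tmem126b, Sdhaf4 and Uqcc3 changed by -0.51, -0.57 and -0.44 (adjusted p of all 7 between 0.00101 and 0.0177). The call of Uqcc1 was lost without DMSO replicate 1 (0.0709) and with library size alone (0.319), and that of Ecsit with library size alone (0.114). Sdhaf3 and Sdhaf2 (complex II) and Tmem70 (complex V) also rose (adjusted p = 0.0280, 0.0473 and 0.0208). Their calls were lost in 6, 10 and 6 of 19 alternatives, a threshold of 0.01 among them.

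Of 19 genes of electron carriers and coenzyme Q synthesis 4 rose and 6 fell (52.6%, near the 56.7% of all genes), and these counts were 2 and 8 with library size alone, 2 and 4 without DMSO replicate 1, 4 and 3 without DTG replicate 2 and 3 and 3 without DTG replicate 3. Cycs, which encodes cytochrome c, was at 40.2, 43.6 and 30.7 CPM in DMSO and at 62.9, 72.3 and 91.6 CPM in DTG, with no overlap (log2 0.98 ± 0.16, adjusted p = 6.25e-04). Coq8a and Coq8b, related kinase-like proteins of coenzyme Q synthesis, moved in opposite directions, from 2.77 ± 0.46 to 0.495 ± 0.042 CPM and from 21.4 ± 1.595 to 40.7 ± 3.17 CPM (SD, n = 3 each). Their log2 fold changes were -2.48 ± 0.20 and 0.93 ± 0.09 (adjusted p = 5.94e-06 and 2.02e-05). Of 10 regulators tested 2 rose and 4 fell (60%, beside the same 56.7%). With library size alone 2 rose and 6 fell, and without DTG replicate 1, 2 or 3 each time 2 rose and 2 fell. Pprc1, a coactivator of respiratory genes, and Hif1a were at 0.85 ± 0.08 and 1.09 ± 0.11 log2 (adjusted p = 1.77e-05 and 2.88e-05), and Epas1, the HIF-2 alpha gene of endothelium, was at -1.14 ± 0.08 (adjusted p = 2.71e-06). Nrf1 was at 29.2 ± 1.65 and 29.3 ± 1.47 CPM, and Ppargc1a was too low to test. Ndufab1, the acyl carrier subunit outside the name pattern, did not pass (log2 0.01, adjusted p = 0.876).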

How the data were processed

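RNA of 6 libraries was sequenced from a strand-preserving poly(A) kit, per the labels' protocols. The deposited table holds raw counts as whole numbers for each Ensembl identifier, without normalization, made on build GRCm39 per the submitters' processing notes. Which aligner, counter, strand setting and annotation were used is not given in the sources used here. One column, spelled DIG, was assigned to DTG replicate 1 through the rest of its name.

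Counts were fitted in R 4.3.3 with edgeR 4.0.16 (filterByExpr, TMM, robust quasi-likelihood F-test, group as the only term), with p-values adjusted by Benjamini-Hochberg over 14101 genes. Standard errors were taken as the size of the log2 fold change over the root of its F. Values within a P tag are differences of mean log2(CPM + 0.5), without a test. They rest on a single DMSO library in P4 and a single DTG library in P5. Symbols, matched for 38606 of 43271 identifiers, transcript lengths and sequences came from references of build GRCm38, so no gene coordinates on the build of the files are given. Counting intervals and the depth of a library cover counting error only.

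Members, lists and the rule for named genes (the mitochondrial and Sdh members, the isoform families, and the smallest p of each complex and list) were chosen with earlier results of these data known. Genes named outside it were chosen after their values were seen. One gene that passed is counted but not reported here. Alternatives were other scalings, filters and thresholds, DESeq2 1.42.0, limma-voom (limma 3.58.1), the P tag as a term, a replicate block and omission of each library. The pipeline was tested on simulated counts. Figures were drawn with matplotlib 3.10.9.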

Additional observations from a re-analysis of the deposited data

How the results depend on the processing

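Same-numbered libraries of the groups deviated with correlations of -0.30, -0.11 and -0.07 across genes. Each same-numbered pair also differs in its P tag, so this check cannot tell whether the replicate numbers pair the libraries. Pairs with the same P tag correlated at 0.13 to 0.23 and pairs with different tags at -0.30 to -0.07. With the replicate block 10 nuclear genes rose and 6 fell, and 1 mitochondrial gene rose and 1 fell. Counts of nuclear genes higher and lower were 12 and 10 in the test reported, 14 and 7 with RLE scaling, 6 and 15 with upper-quartile scaling, 4 and 27 with library size alone, 15 and 7 with DESeq2, 12 and 8 with limma-voom and 6 and 4 at an adjusted p of 0.01. Leaving out 1 library gave 7 to 17 higher and 4 to 18 lower. Mitochondrial counts of 2 higher and 1 lower became 1 and 2 with upper-quartile scaling and with library size alone, 5 and 1 without robust estimation and with limma-voom, 0 and 1 with no filter, 6 and 1 with the P tag as a term and 0 and 0 at 0.01, and ranged from 0 to 9 and from 0 to 2 without 1 library. With no filter and edgeR 22856 genes were tested. The cause of these changes was not tested.

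Medians moved with library size alone, which shifts all genes by -0.17, to -0.17 for the nuclear genes and to -0.15, -0.17, -0.11, -0.23 and -0.23 for nuclear complexes I to V. With upper-quartile scaling they were -0.092 for complex II and -0.16 for complex V. Without 1 library they ranged from 0.19 to 0.89 (mitochondrial), 0.40 to 0.91 (mitochondrial complex I), -0.152 to 0.032 (nuclear complex IV) and -0.106 to 0.0098 (nuclear complex V). The mitochondrial share differed by -0.21 percentage points of all counts and by 0.89 of the members' counts.

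Of 1366 alternative values of 72 named genes 1168 kept their direction and side of the threshold, 129 lost a call, 36 gained one and 33 changed sign, each in a gene that had not passed. With upper-quartile scaling these were Atp5g3 (-0.0137), Cox6a1 (-9.49e-04), Sdhc (-0.0217), mt-Nd6 (-0.0438) and Ndufab1 (-0.0777), and with library size alone Atp5g3 (-0.0911), Cox6a1 (-0.0787), Sdhb (-0.00957), Sdhc (-0.0993), mt-Nd6 (-0.118) and Ndufab1 (-0.155). Cox4i1 was at 0.00286 with RLE and 0.00973 with DESeq2, and Cox8b at 0.0158 with the replicate block and 0.0947 with limma-voom. Leaving out 1 library gave ranges across 0 for Atp5g2 (-0.159 to 0.0281), Cox4i1 (-0.105 to 0.0563), Cox6a1 (-0.0298 to 0.193), Cox8a (-0.18 to 0.032), Cox8b (-0.385 to 0.459), Sdhd (-0.113 to 0.0162), mt-Co2 (-0.368 to 0.0397), mt-Nd6 (-0.275 to 0.586) and Ndufab1 (-0.0124 to 0.0601).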
